A study of Mus musculus with 2 samples.

Results

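Non-cycling alveolar myofibroblasts were taken from a single-cell RNA-seq library of the newborn mouse lung, as 445 of its 11306 cells. A cell was a member when mitochondrial genes made up at most 10% of its total and at least 3 of Aspn, P2ry14, Agt, Pdgfra, Hhip and Egfem1 had a value above 0. It also had to have fewer than 2 of the lipofibroblast genes Tcf21, Wnt2, Col13a1 and Slc27a6, neither Ptprc nor Pecam1, and at most 2 of the cycling genes Top2a, Mki67, Cdk1, Ccnb1, Tpx2 and Cenpf. The 18 genes of this rule chose the cells, so their levels in the members are a description and carry no weight as findings.

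Alveolar myofibroblasts are contractile, matrix-producing fibroblasts that lie at the tips of the growing septa while the lung divides its air sacs into alveoli after birth. They respond to platelet-derived growth factor through PDGFRA, contract through smooth muscle-type actin and myosin, and lay down the elastic fibres around which septa form. Lipofibroblasts, their neighbours in the septal wall, store lipid, and together with other matrix fibroblasts they support the alveolar epithelium.

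The study profiled peripheral lung at postnatal day 3, and its title places these cells in a circuit with autonomic nerves during alveolar formation. The single-cell library (10x Chromium 3′ chemistry) came from wild-type peripheral lung cells that had been sorted, with the gate of that sort not specified in the labels. The other sample held PDGFRA+ cells sorted out of Pdgfra-H2BGFP peripheral lung of the same age and sequenced in bulk, from a line in which a nuclear green fluorescent protein reports the Pdgfra locus. Both samples are described as controls, each group had 1 sample, and pooling of animals is not stated. No difference between classes therefore had a replicate check, cells of 1 library are not replicates, and no p-value was computed. The single-cell table held 17758 genes and a total of 62575796, and the bulk table held 16906 genes and 171910584 reads.

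The mitochondrial limit kept 10660 cells, and the members were 4.17% of these (exact 95% interval 3.80 to 4.57, covering counting error only, as do all intervals here). At least 3 markers were found in 776 of the kept cells, the limit on lipofibroblast genes left 708, the absence of Ptprc and Pecam1 left 580, and the limit on cycling genes left 445. Another 41 cells met every condition except the mitochondrial one. The members had a median of 2776 detected genes (1208 to 3445), against 2031 in all other kept cells and 1818 in the 7132 Ptprc-positive, that is immune, cells. A doublet score predicted 1 member to be a doublet, against 5.05% of all kept cells. The rule favours a low number, because it leaves out cells that also carry Ptprc, Pecam1 or several lipofibroblast genes.

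Each comparison used sums over cells. A level is given in CPM, the summed value of a gene for each 1000000 of the summed values of the class, and a log2 ratio compares the levels of both classes after 1 CPM was added to each. A gene entered a comparison with a summed value of at least 20 over both classes, and it was counted as higher or lower from a ratio of 2-fold, that is a log2 ratio of 1 or more in size. The comparison classes were 653 lipofibroblast-type cells (at least 2 of the 4 lipofibroblast genes and fewer than 3 markers), 166 smooth muscle-type cells (at least 3 of Myh11, Actg2, Cnn1, Des, Synpo2 and Lmod1 and fewer than 3 markers), 135 cycling cells of the same marker gate, and all 10215 other kept cells. The classes overlap only in that the last one contains the other ones.

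Of the markers that chose the members, P2ry14, a receptor for UDP-sugars, was above 0 in 90.1% of them, and Agt, which encodes angiotensinogen, in 88.5%. Egfem1 was above 0 in 78.4%, Pdgfra in 69.2%, Hhip, a hedgehog-binding inhibitor, in 48.3%, and Aspn, the matrix proteoglycan asporin, in 38.9%. The marker levels in the members were 692 CPM for P2ry14, 729.9 for Agt, 294 for Egfem1, 290.4 for Pdgfra, 265 for Hhip and 819 for Aspn. In lipofibroblast-type cells P2ry14 was at 3.75 CPM, Agt at 11.5, Egfem1 at 1.07, Pdgfra at 47.1, Hhip at 298 and Aspn at 72.0. Hhip was thus at a like level in the lipofibroblast-type cells.

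Each marker was also read in cells chosen by at least 3 of the other 5, a selection that the marker itself did not enter. Egfem1 was then above 0 in 76.4% of such cells (72.0 to 80.5) and in 0.765% of lipofibroblast-type cells redefined with the same 5 markers. P2ry14 was found in 88.3% against 2.58%, and Pdgfra in 63.3% against 24.5%. Aspn was found in 31.3% against 20.7%, and Hhip in 42.9% against 61.0%. P2ry14, Agt (86.6% against 8.37%) and Egfem1 were thus found in most of the cells that the other markers chose, and Aspn and Hhip in a minority of them. The markers were chosen with earlier results of these data known. The redefined lipofibroblast-type cells had to have fewer than 3 of the other 5, which favours low shares in them. These shares are therefore a description too.

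Against the markers of other cell types the label was not clear-cut: most members carried smooth muscle genes, and 35 carried at least 5 adventitial markers. The 20 myofibroblast genes outside the rule summed to 16845 CPM in the members and 18760 CPM in smooth muscle-type cells. Of the 18 of these genes that were compared with that class, 11 were higher in the members and 2 lower. Smooth muscle genes were widespread in the members: 358 of the 445 (80.4%) had at least 3 of the 6 smooth muscle gate genes. Ckm, Sost and Pln of the smooth muscle list were at 0 in every member. These genes were also too low to enter the comparison with smooth muscle-type cells, so their absence does not separate the classes. Of this list only Mcam was compared with that class, and it was lower in the members (log2 ratio -1.995). The other class of concern was adventitial fibroblasts, the cells of the connective tissue sleeves around vessels and airways. Of the 445 members, 35 had at least 5 of 10 adventitial markers, and these 35 rested on Aspn (35 cells), Pdgfra (34) and Hhip (32), with P2ry14 in 2, Agt in 2 and Egfem1 in none. Dcn, which encodes the collagen-binding proteoglycan decorin, was at 324 CPM over all members and at 12.4 CPM in the other 410. The 10 adventitial markers, all above 0 in the members, summed to 1498 CPM in all members, to 558 CPM without the 35 cells and to 10523 CPM in 83 adventitial-type cells outside the gate. The 35 cells stayed in the values below, and values without them are given beside several results that they move.

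Immune, epithelial and endothelial signal in the members was low against all other cells, which the absence of Ptprc and Pecam1 favours for immune and endothelial genes. The 10 endothelial markers summed to 126 CPM in the members, 84.5 CPM in lipofibroblast-type cells and 1097 CPM in all other cells. Of these 10, 9 were lower in the members than in all other cells and 1, Ednrb, was higher. The 10 immune markers summed to 397 CPM in the members and 22403 CPM in Ptprc-positive cells, and the 11 epithelial markers to 494 CPM against 10975 CPM in all other cells. Sftpc, the surfactant gene of alveolar type 2 cells, had a value above 0 in 90.6% of the members, at 382 CPM. It did so in 94.0% of Ptprc-positive cells too, at 1675 CPM, so a Sftpc value does not set the members apart. Whether such a value is background or expression was not tested. For some genes the share of cells with a value is therefore given below beside that in Ptprc-positive cells. The median number of detected genes in those cells (1818) was lower than in the members (2776).

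Some genes outside the rule had levels ordered by the number of markers per cell, and others did not. Of the members, 111 had exactly 3 markers, 185 had 4, 127 had 5 and 22 had all 6. Wnt5a, a non-canonical Wnt ligand, was at 206 CPM in members with 3 markers, 321 with 4, 499 with 5 and 658 with 6. Tgfbi, a matrix protein induced by transforming growth factor beta, was at 1548.5, 2626, 3216.5 and 3868 CPM in the same order. Htra1, a secreted serine protease, was at 1075, 1945, 1527 and 1294 CPM and Eln, the elastin gene, at 4117, 2047, 3334 and 4182.5 CPM, neither in that order. Median detected genes were 2647, 2807, 2830 and 2979. All 35 members with at least 5 adventitial markers were among the 111 with 3 markers, so that group is mixed. The part of detected genes and of these 35 cells in the orders was not tested. Just outside the rule, 112 cells met every other condition with 2 markers, and 47 of these had at least 5 adventitial markers. In those 112 cells Wnt5a was at 43.5 CPM, Tgfbi at 263 and Dcn at 1667, and in the 111 members just inside the rule Dcn was at 1287 CPM. In members with 4 and 5 markers Dcn was at 7.95 and 7.74 CPM, so the cells with adventitial markers lie on both sides of the minimum of 3 and not above it.

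**Figure D1:**
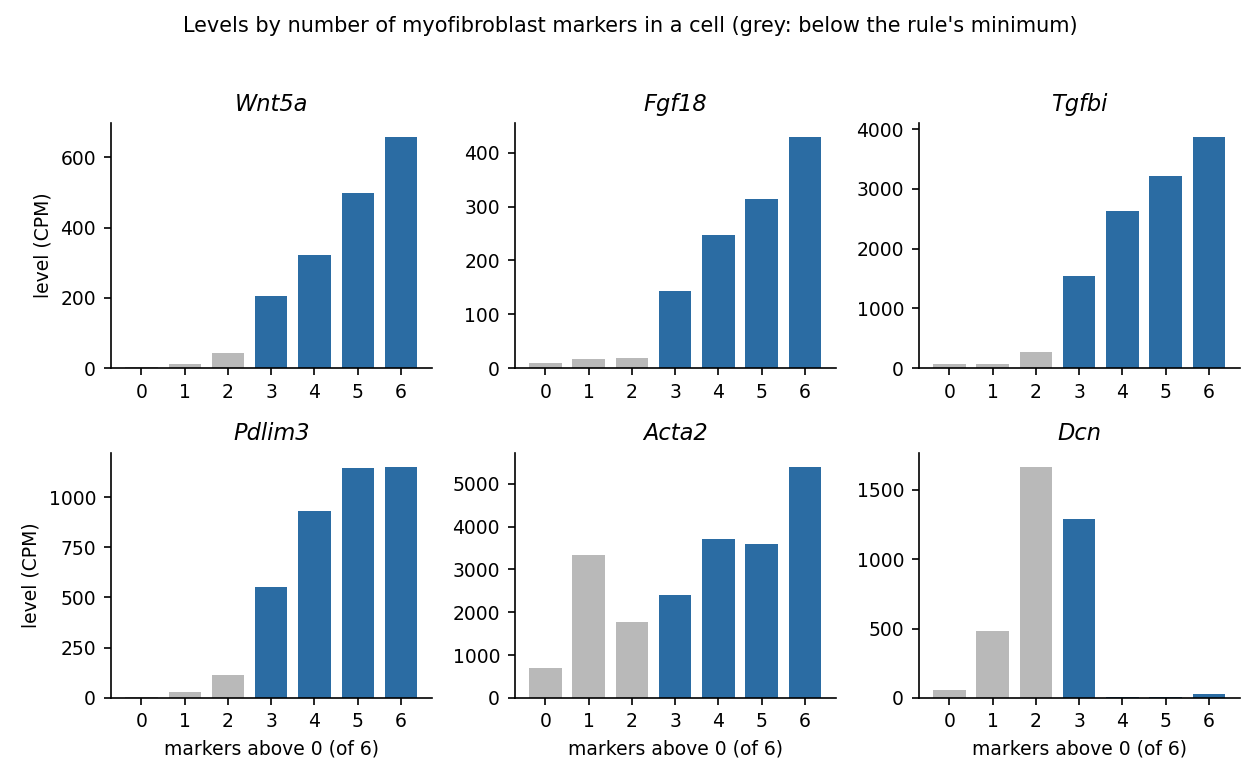
Level in CPM (y axis, linear, from 0) of Wnt5a, Fgf18, Tgfbi, Pdlim3, Acta2 and Dcn in cells grouped by how many of the 6 markers had a value above 0 (x axis), all meeting the other conditions of the rule; grey bars are cells below the minimum of 3 and blue bars are members. Wnt5a climbs from 1.86 CPM in cells with 0 markers to 658 CPM in the 22 cells with 6, while Dcn is highest in cells with 2 (1667 CPM) and 3 markers (1287 CPM).

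Among individual members the levels spread widely. Tgfbi ran from 0 to 9606 CPM per cell with a median of 2312 (interquartile range 1402 to 3448), and Acta2, the smooth muscle actin, from 0 to 15781 with a median of 2874 (1390 to 4972). Pdlim3, an actin-binding protein of muscle Z-discs, had a median of 827 CPM per cell (478 to 1270.2). Wnt5a had a median of 299.7 CPM, with a lower quartile of 0. Most members thus carried the abundant contractile and matrix genes, whereas values of 0 were common for signalling genes of lower level.

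Compared with the lipofibroblast-type cells, the myofibroblasts carried far more of a contractile and signalling set: Pdlim3, Tgfbi, Actg2, Cnn1, the tendon transcription factor gene Scx, Fgf18 and the smooth muscle coactivator gene Myocd were all more than 50-fold higher. Npnt, Limch1, Nebl and Slc36a2 were as far in the other direction. The lipofibroblast-type cells had a median of 2364 detected genes, against 2776 in the members, and 29 of the 653 were predicted doublets (4.44%). Of 11487 genes compared, 1004 were higher (8.74%) and 905 were lower (7.88%), with a median log2 ratio of 0.10 over all of them. Of the 20 myofibroblast genes outside the rule, 15 were higher and 2 lower, with a median of 3.69. Both lower ones, Nebl, which encodes the actin-binding protein nebulette (1.10 against 391 CPM), and Bmp5 (60.4 against 139 CPM), go against the list's name.

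The highest genes had these values. Pdlim3 (mm10 chr8:45885461-45919548) was at 911 CPM in the members and 4.28 CPM in the lipofibroblast-type cells (log2 ratio 7.43), and was above 0 in 89.7% of the members (86.5 to 92.3), 2.45% of the lipofibroblast-type cells and 3.86% of Ptprc-positive cells. Tgfbi (chr13:56609523-56639562) was at 2593 against 16.1 CPM (7.25), and it was found in 94.4% of the members, although immune cells carry it as well (40.3%). Fgf18 (chr11:33117430-33147400), a fibroblast growth factor of the developing lung, was at 249.6 against 2.41 CPM (6.20), in 62.7% against 1.23% of cells, with 1.23% in Ptprc-positive cells. For these genes the share of members with a value was well above the share of Ptprc-positive cells. Scx (chr15:76457452-76459458) was at 94.97 against 0.268 CPM (6.24), in 25.6% of the members and 0.153% of the lipofibroblast-type cells. Htra1 was at 1578 against 31.8 CPM (5.59), in 92.4% against 9.34% of cells. Further genes of this group were Lgr6, an R-spondin receptor (77.7 against 0.535 CPM), and S100b, a calcium-binding protein (124 against 1.34 CPM). S100b is a glial gene too: the neural and Schwann markers, 6 of 10 in the table, summed to 131 CPM in the members, of which S100b made up 124, and the Schwann cell gene Erbb3 was at 0.

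**Figure D2:**
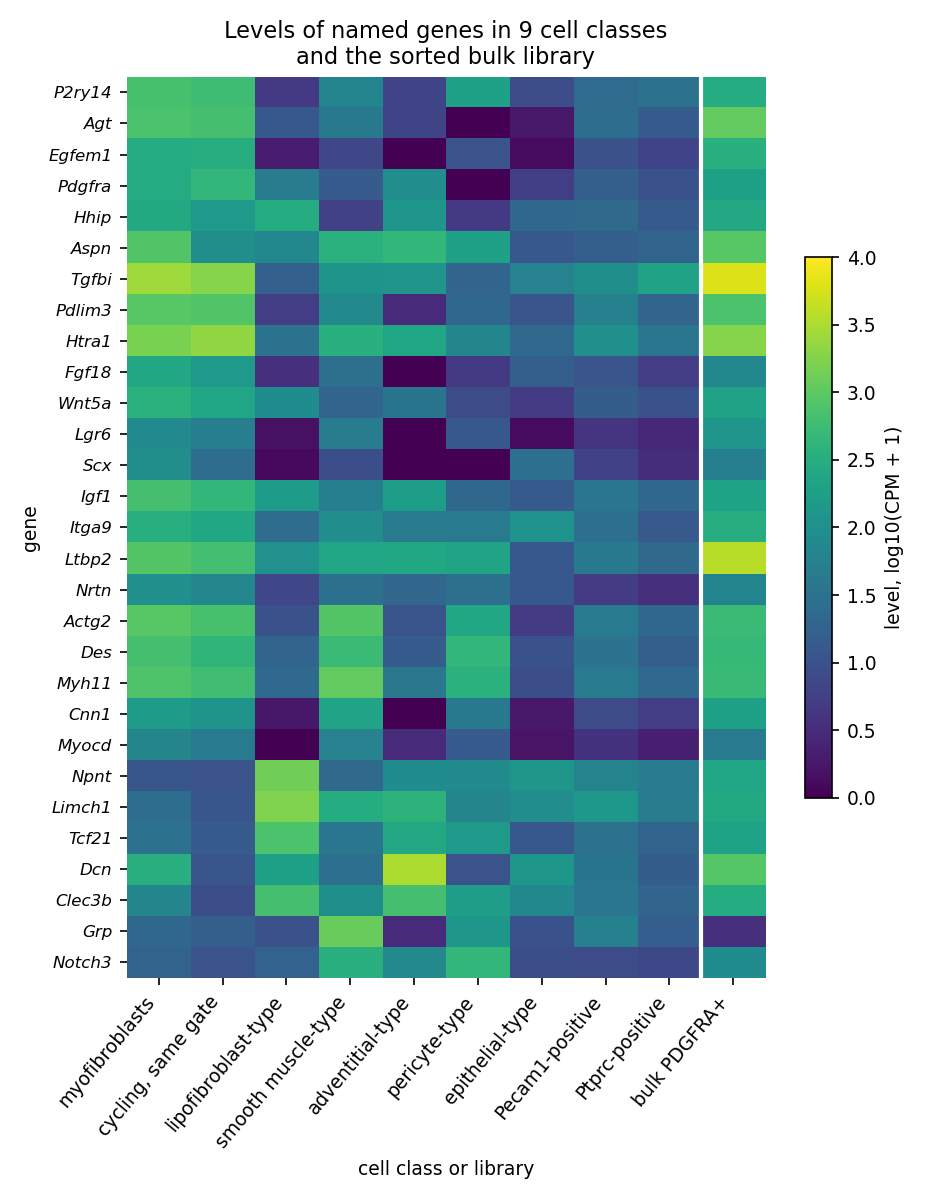
Levels of 29 named genes (rows) in 9 cell classes and the bulk library of sorted PDGFRA+ cells (columns, set off by a white line), as log10(CPM + 1) on a color scale from 0 to 4. Among the cell classes, Egfem1, Pdlim3 and Fgf18 are brightest in the myofibroblasts (294, 911 and 249.6 CPM) and the cycling cells of the same gate, while Actg2, Des, Myh11 and Cnn1 are bright in the smooth muscle-type cells as well.

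Genes of the lipofibroblast set were low in the members, as the choice of both classes favours. Of 18 lipofibroblast and matrix fibroblast genes outside the rule, 17 were lower and none was higher, with a median log2 ratio of -4.10, and the one exception was Lpl, a lipoprotein lipase. Npnt (chr3:132881745-132950291), which encodes the integrin ligand nephronectin, was at 10.7 CPM in the members and 1358 CPM in the lipofibroblast-type cells (-6.86). Limch1, an actomyosin regulator, was at 26.9 against 1657 CPM (-5.89). Slc36a2, an amino acid transporter, was at 0 in all 445 members, so up to 0.674% of such cells could have a value, and it was at least 125.5-fold lower. The growth factor gene Fgf10 was at 4.79 against 85.6 CPM and the FGF receptor gene Fgfr4 at 12.9 against 160.3 CPM. Of 25 lipid and retinoid genes, 2 were higher and 11 lower, among them the lipid droplet gene Plin2 (46.0 against 266 CPM).

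**Figure D3:**
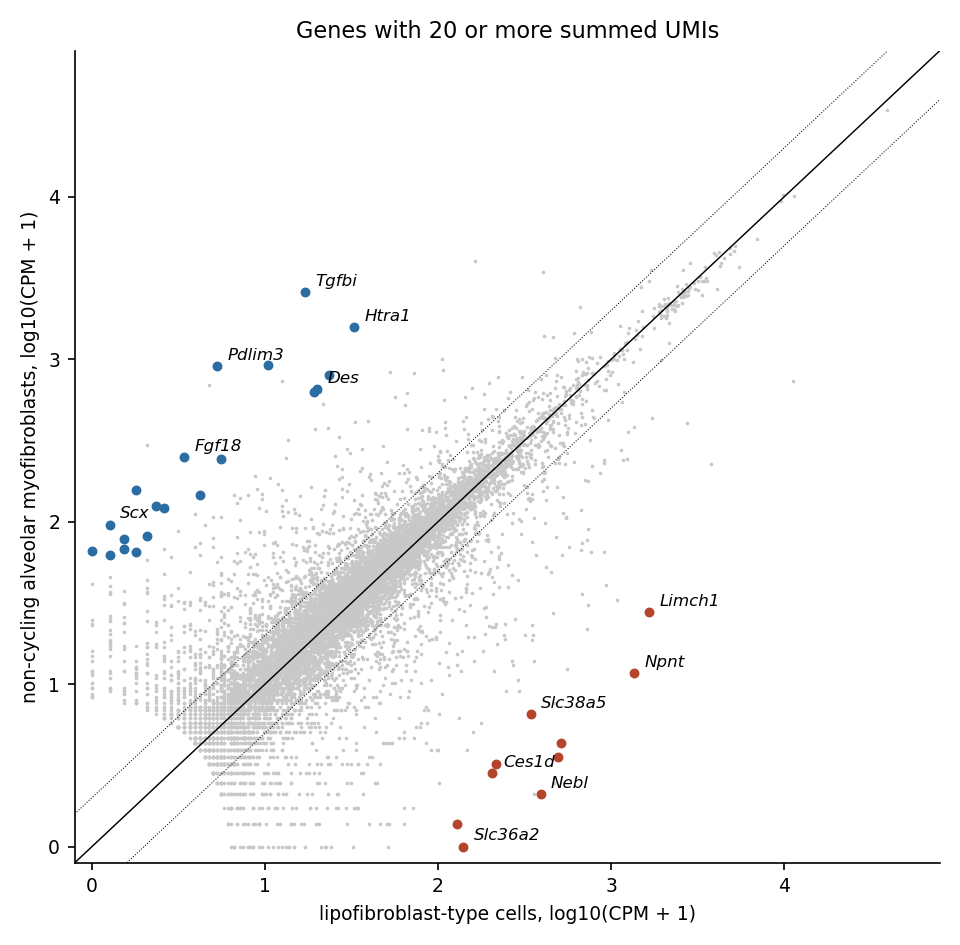
Level of each of 11487 genes in the myofibroblasts (y axis) against lipofibroblast-type cells (x axis), both as log10(CPM + 1), with equality drawn as a solid line and the 2-fold limits as dotted lines. Blue points are the 20 named genes with the highest ratio and red points the 10 with the lowest, genes of the rule shown in grey where they are not among these; Tgfbi (2593 against 16.1 CPM) and Npnt (10.7 against 1358 CPM) lie far from the line on opposite sides.

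The contractile apparatus was higher as a group. Of 30 contractile genes, 19 were higher and none lower than in the lipofibroblast-type cells, with a median log2 ratio of 1.76, and without the cells with adventitial markers the median was 1.83 (8.82% of all genes were then higher and 8.84% lower). Acta2 was at 3442 against 403.5 CPM (3.09) and the actin-binding gene Tagln at 4051 against 162 CPM (4.64). Genes often used to name smooth muscle followed: Myh11, the smooth muscle myosin heavy chain, was at 797 against 22.5 CPM (5.09), Des, the intermediate filament desmin, at 653 against 19 CPM (5.03), and Cnn1, calponin, at 155 against 0.803 CPM (6.44). Myh11 was above 0 in 87.4% of the members, 9.34% of the lipofibroblast-type cells and 3.88% of Ptprc-positive cells. All 7 smooth muscle genes that could be compared were higher. Myocd, which encodes the partner of serum response factor at smooth muscle genes, was at 65.5 CPM in the members and at 0 in all lipofibroblast-type cells, at least 81.6-fold higher.

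Serum response factor binds the CArG box, and this motif was searched for on both strands of the RefSeq promoters (GRCm38.p6, 250 bases before to 50 after the start of the gene) because Myocd acts through it. The box was found in 5 of the 26 contractile genes with a promoter in the table (19.2%), which are Myl6, Myl9, Cnn2, Filip1l and Vcl, and in 488 of all 27025 promoters (1.81%). Of the 16 promoters of contractile genes that were higher in the myofibroblasts, 2 held it (12.5%), those of Myl9 (782 against 221 CPM) and Filip1l (838.5 against 51.6 CPM). Actc1, the cardiac actin gene, lies outside the list and held a box too. It had a value in only 11 of the 445 members, at 56.3 CPM, against 5.62 CPM in lipofibroblast-type and 1000 CPM in smooth muscle-type cells. The stretches that carry these boxes are shown 5′ to 3′ on the strand of the gene, in capitals where the box lies, and each is a match of letters, not a site shown to be bound:
Myl9, chr2:156775278-156775362, plus strand: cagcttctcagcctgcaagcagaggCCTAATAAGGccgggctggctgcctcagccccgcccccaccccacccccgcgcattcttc
Filip1l, chr16:57549155-57549239, plus strand: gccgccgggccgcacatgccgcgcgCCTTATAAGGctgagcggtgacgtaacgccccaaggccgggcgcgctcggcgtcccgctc
Actc1, chr2:114052876-114052947, minus strand: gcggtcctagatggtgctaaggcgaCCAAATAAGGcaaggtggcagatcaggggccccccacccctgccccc

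Matrix genes differed by gene more than by group. Of 21 elastic fibre genes, 5 were higher (Loxl3, Mfap5, Loxl2, Ltbp2 and Ltbp3) and 3 lower (Efemp1, Mfap4 and Fbln5), with a median log2 ratio of 0.28, or -0.13 without the cells with adventitial markers. Eln, which encodes elastin itself, was at 3035 CPM against 1666 CPM (0.87), below the 2-fold limit, and at 2725 CPM without those cells. Ltbp2, which encodes a protein of microfibrils, was at 855 against 106 CPM (3.00), and the cross-linking enzyme gene Loxl2 at 617 against 65.3 CPM (3.22). Fbln5, a fibulin needed for elastic fibre assembly, was at 76.6 against 729 CPM, and Mfap4 at 731 against 11277 CPM. Of 21 collagens, 8 were higher and 4 lower, with Col12a1 at 163 against 17.4 CPM and Col18a1 at 12.2 against 128 CPM. Of 20 matrix glycoproteins and proteoglycans, 7 were higher, with Spon2 at 588 against 55.7 CPM, and 6 lower, with the fibronectin gene Fn1 at 405 against 2763 CPM. Their medians depended on the cells with adventitial markers, at 0.47 with and -0.27 without them for collagens, and at 0.29 and -0.89 for glycoproteins. Without these cells, elastic fibre genes were 4 higher and 5 lower, with Mfap5 no longer higher (0.39), collagens 7 higher and 5 lower, and glycoproteins 6 higher and 9 lower.

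Wnt genes were split. Of 33 Wnt ligands, receptors and modulators, 10 were higher and 6 lower. Wnt5a (chr14:28504750-28527448) was at 361 against 87.2 CPM (2.04), in 74.6% of the members and 37.8% of the lipofibroblast-type cells, with 2.75% in Ptprc-positive cells. Wnt11, also a non-canonical ligand, was at 138 against 8.56 CPM (3.86), and the secreted inhibitor gene Wif1 at 189.6 against 7.76 CPM (4.44). The R-spondin gene Rspo2, an amplifier of canonical Wnt signals, was lower at 2.21 against 26.8 CPM. Of 13 planar cell polarity genes, 2 were higher (Fjx1 and Daam2) and 3 lower (Fat4, Vangl1 and Prickle1), and Vangl2, a core gene of that pathway, was at 38.3 against 23.8 CPM (0.66).

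Of the TGF-beta and BMP list, 15 of 30 genes were higher and 4 lower, with a median log2 ratio of 0.91. The higher ones included the co-receptor gene Eng (218 against 25.1 CPM), the BMP antagonist gene Nog (23.9 against 1.61 CPM), and Gdf10 (44.5 against 11.2 CPM). The receptor gene Tgfbr2 was lower, at 75.1 against 152.5 CPM (-1.01). Of 16 FGF genes, 6 were higher and 3 lower: Fgf18 and the feedback inhibitor gene Spry1 (187 against 39.1 CPM) were higher, and Fgf10, Fgfr3 and Fgfr4 were lower. Of 13 hedgehog genes, 1 was higher and 2 were lower. The higher one was Foxf1, a transcription factor gene of lung mesenchyme (253 against 24.4 CPM), while the pathway's readouts Ptch1 (144 against 162 CPM) and Gli1 (33.5 against 25.4 CPM) were near-equal in both classes. Igf1, an insulin-like growth factor, was at 666 against 156 CPM (2.09).

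Genes through which these cells could meet nerves were listed because of the study's subject. Of 7 neurotrophic ligands and receptors that could be compared, 5 were higher and 1 lower. Nrtn (chr17:56751325-56757530), which encodes the GDNF-family ligand neurturin, was at 101 against 6.15 CPM (3.83), in 39.6% of the members (35.0 to 44.3), 3.37% of the lipofibroblast-type cells and 1.12% of Ptprc-positive cells. Bdnf was at 46.4 against 5.62 CPM (2.84), Ntf3 at 11.4 against 4.01 CPM, and the receptor gene Ntrk3 at 34.2 against 7.76 CPM. Nrtn had a value in 176 members, against 70 for Bdnf and 30 for Ntf3. Gfra2, the co-receptor for neurturin, was at 74.4 CPM in the members and 131 CPM in the lipofibroblast-type cells (-0.81), while the signalling receptor gene Ret was at 0.368 CPM, with a value in 1 member. Gdnf had a value in 18 members, at 6.63 CPM.

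Of 32 axon guidance genes, 10 were higher, among them Unc5b (106 against 4.01 CPM), Plxna4 (129 against 5.89 CPM), Sema3c (157 against 11.5 CPM) and Ntn1 (79.9 against 5.89 CPM), and 12 were lower, among them Slit2 (21.0 against 725 CPM), Nrp2 (8.10 against 248 CPM) and Unc5c (12.2 against 269 CPM). Receptors for transmitters and neuropeptides were low in the members: of 10 that could be compared, 6 were lower and 2 higher. Adra1b, an alpha-1 adrenergic receptor, was at 1.47 against 101 CPM (-5.36), and the beta receptor gene Adrb3 was at 0 in all members and at 12.3 CPM in the lipofibroblast-type cells. The muscarinic receptor gene Chrm2 had a value in 8 members, at 3.31 CPM. Both higher genes, Ramp1 (62.6 against 7.76 CPM) and Ramp2 (119 against 46.8 CPM), encode partners of the calcitonin-family receptor whose gene, Calcrl, was at 6.26 against 4.82 CPM. The direction of this list's median, -1.28, did not hold when only cells of like numbers of detected genes were compared (0.31) or when mitochondrial share was held to 5% with at least 1000 genes (0.20).

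Of 7 renin-angiotensin and endothelin genes, 4 were higher and 1 lower. Beside the marker Agt, the angiotensin-converting enzyme gene Ace was at 40.1 against 3.75 CPM. Ace was highest in Pecam1-positive cells, at 329 CPM, and its log2 ratio in the members against all other cells was -0.73. The endothelin receptor gene Ednrb was at 64.8 against 16.6 CPM, whereas the other endothelin receptor gene, Ednra, was at 83.2 against 300.2 CPM. Of 12 integrins, 5 were higher, with Itga9 at 331 against 25.9 CPM (3.62), and 2 lower, with Itga8 at 11.04 against 208 CPM. Among 50 transcription factors, 16 were higher and 5 lower. Besides Myocd and Foxf1, the homeobox gene Meox1 was at 57.1 against 1.07 CPM, Sox11 at 110.4 against 2.94 CPM and the mesenchymal regulator gene Twist1 at 38.3 against 1.07 CPM. Meox2, the relative of Meox1, was at 19.1 against 318 CPM, and at 1.20 CPM without the cells with adventitial markers. Without those cells 14 of the 50 transcription factors were higher and 7 lower, and of the renin-angiotensin and endothelin genes 4 were higher and 2 lower.

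Smooth muscle-type cells shared the contractile genes and differed in signalling genes. Of 10367 genes, 1397 were higher in the members (13.5%) and 585 lower (5.64%), with a median log2 ratio of 0.28. Of 25 contractile genes, 1 (Pdlim3) was higher and 5 lower (Myl9, Tpm2, Actn4, Mustn1 and Acta2), with a median of -0.40. Acta2 was at 3442 CPM in the members and 8401 CPM in the smooth muscle-type cells (-1.29), and Myl9 at 782 against 2069.8 CPM. Myh11 was at 797 against 1095 CPM (-0.46), Des at 653 against 524 CPM (0.32), Actg2 at 926 against 837 CPM (0.15) and Myocd at 65.5 against 59.4 CPM (0.14), all under the 2-fold limit. The class was chosen by Myh11, Actg2, Cnn1, Des, Synpo2 and Lmod1, so high levels of these in it are set by its rule.

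Growth factor and morphogen genes differed by family. Of 14 FGF genes, 10 were higher and none lower, with a median log2 ratio of 2.05, beside 13.5% of all genes higher. Fgf18 was at 249.6 against 28.7 CPM and Spry1 at 187 against 40.9 CPM. Of 31 Wnt genes, 14 were higher and 2 lower, with Wnt5a at 361 against 19.5 CPM (4.14) and Wif1 at 189.6 against 9.21 CPM. Of 10 hedgehog genes, 5 were higher and none lower, with Ptch1 at 144 against 43.0 CPM and Gli1 at 33.5 against 9.21 CPM. Of 29 TGF-beta and BMP genes, 10 were higher and 3 lower, with a median of 0.23 that was near the 0.28 of all genes. Of 11 insulin-like growth factor genes, 5 were higher and 4 lower (median -0.77), and of 3 platelet-derived growth factor genes none was higher and 2, Pdgfa and Pdgfrb, were lower (median -1.60). Of 19 collagens, 12 were higher and 1 lower (median 1.35). Eln went the other way, at 3035 against 18105 CPM (-2.58). Lpar1, a receptor for lysophosphatidic acid, was at 97.9 against 1.02 CPM (5.61), Cd34 at 253 against 11.3 CPM (4.37), and Gdf10 at 44.5 CPM against 0, at least 14.5-fold higher.

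Notch genes were on the other side, higher in smooth muscle-type cells. Of 9 Notch genes, none was higher and 5 were lower (median -1.79), with Notch3, the receptor of mural cells, at 17.7 against 342 CPM, Heyl, a Notch target, at 12.9 against 253 CPM, and the ligand gene Jag1 at 12.5 against 131 CPM. Of 10 pericyte genes, 5 were lower (Cox4i2, Gucy1a1, Cspg4, Higd1b and Notch3, which is in both lists) and 2 higher (Kcnj8 and Lipg), with a median of -1.37. The 10 together summed to 674 CPM in the members and 2099 CPM in the smooth muscle-type cells, and their part in the Notch difference was not tested. Of 8 neurotrophic genes, Nrtn (101 against 28.7 CPM) and Gfra2 were higher, and Bdnf (46.4 against 103 CPM), Ntf3 (11.4 against 93.1 CPM), Ntrk3 and Gfra4 lower. Grp, the gene of gastrin-releasing peptide, was at 21.7 against 1183 CPM (-5.70), and the chemokine gene Cxcl13 at 1.47 against 246 CPM. Of 13 integrins, 7 were lower and 3 higher. Of 16 genes that respond to tissue dissociation, 9 were lower in the members and none higher (median -1.11), and their part in the other differences was not tested. Median detected genes were 2776 in the members and 2301 in the smooth muscle-type cells.

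**Figure D4:**
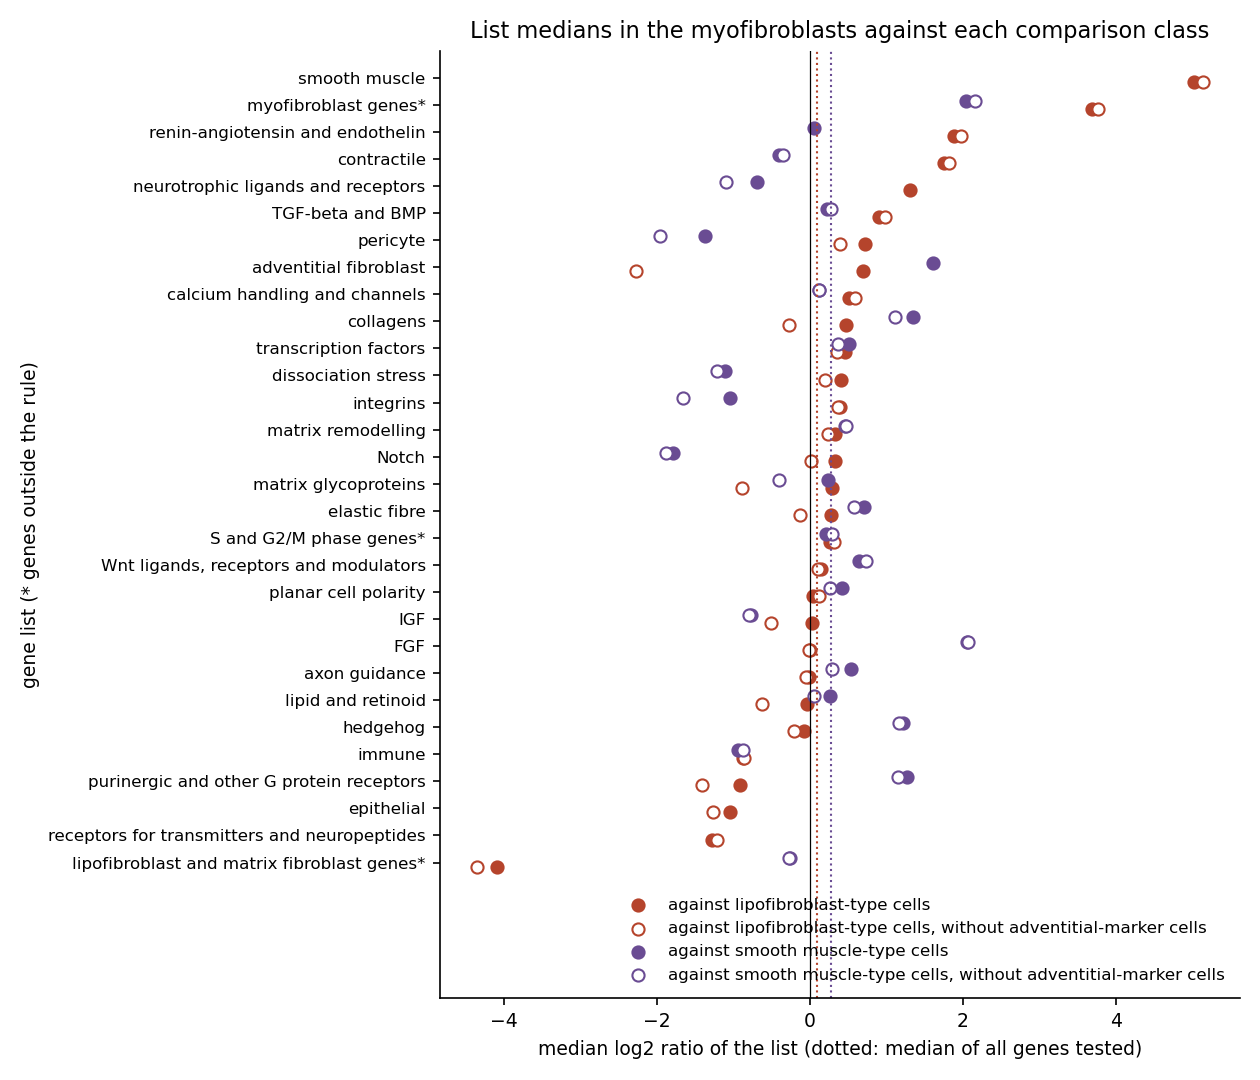
Median log2 ratio (x axis) of the genes of each list (y axis) in the myofibroblasts against lipofibroblast-type cells (red) and smooth muscle-type cells (purple), for lists with at least 7 genes compared. Open circles leave out the 35 cells with adventitial markers and dotted lines are the medians of all genes; the contractile list is at 1.76 against lipofibroblast-type and -0.40 against smooth muscle-type cells, and the FGF list at 0.00 and 2.05.

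The cycling cells of the same gate had higher levels of division genes than the members, which the rule's 6 cycling genes favour. Of 10393 genes, 487 were higher in the members (4.69%) and 658 lower (6.33%), with a median log2 ratio of 0.02. Of 26 S and G2/M phase genes outside the rule, 23 were lower and none higher in the members, with a median of -3.82. At least 5 of these 26 genes were above 0 in 63 members (14.2%), in 129 of the 135 cycling cells and in 61 lipofibroblast-type cells, so the limit of 2 cycling genes left some members with a division signature. Contractile genes were near-equal: 1 of 30 was higher and none lower, with Acta2 at 3442 against 2642 CPM. Fgf18 was at 249.6 against 147 CPM, Wnt5a at 361 against 231 CPM and Nrtn at 101 against 69.5 CPM. Aspn was at 819 against 95.5 CPM, Bdnf at 46.4 against 7.07 CPM and Mfap5 at 442 against 54.2 CPM. Adventitial genes were higher in all 9 comparable cases (median 3.32), and in 2 of 6 without the cells with adventitial markers (median 0.88), where 3.48% of all genes were higher and 6.41% lower.

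Against all 10215 other cells, most of which were immune, 2325 of 15454 genes were higher in the members (15.0%) and 2808 lower (18.2%). Of the 20 myofibroblast genes outside the rule, 19 were higher and Nebl lower. Contractile genes were higher in 21 of 30 cases and lower in none, matrix remodelling genes higher in 17 of 20 and lower in none, and collagens higher in 17 of 23 and lower in 2. Pdlim3 (911 against 35.0 CPM), Fgf18 (249.6 against 8.30 CPM), Pappa2, a protease of insulin-like growth factor-binding proteins (120.4 against 4.25 CPM), and Ibsp, a bone sialoprotein (61.5 against 1.66 CPM), had among the highest ratios. The neutrophil genes S100a8 (117 against 8192 CPM) and S100a9 (199 against 10781 CPM) had among the lowest.

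The members were split by each marker in turn, and the split by Aspn is described in full. Leaving out the 35 cells with adventitial markers, 138 of 410 members had an Aspn value and 272 had none, with medians of 2653.5 and 2808.5 detected genes. Of 9415 genes, 359 were higher in the Aspn-positive members (3.81%) and 350 lower (3.72%). Over the same genes and cells, 4.58% were higher and 2.73% lower in the 274 Pdgfra-positive members than in the 136 without Pdgfra, 2.11% and 1.73% with Hhip (183 against 227 cells), and 7.80% and 2.49% with Egfem1 (349 against 61). With P2ry14 the shares were 30.6% and 7.25% and with Agt 20.9% and 7.24%, but there the negative members were 11 and 18 cells. Scx was at 258 CPM in Aspn-positive and 27.5 CPM in Aspn-negative members (log2 ratio 3.18), and above 0 in 54.3% (45.7 to 62.9) against 14.3% (10.4 to 19.1) of cells. Mfap5, a microfibril protein, was at 660.0 against 78.9 CPM, in 76.1% against 20.6% of cells. Lrrc15, a surface protein of matrix-producing fibroblasts, was at 76.7 against 3.59 CPM, and Rgs5, a signalling regulator of mural cells, at 153 against 8.37 CPM. These genes marked the Aspn-positive side, and Cd34, a surface sialomucin, marked the other, at 56.0 against 335 CPM, in 23.9% against 81.2% of cells.

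Further genes lower in Aspn-positive members were Prokr2, a prokineticin receptor (4.87 against 55.0 CPM), Stc1, the hormone stanniocalcin (10.96 against 102 CPM), Etv4, a transcription factor downstream of FGF receptors (10.96 against 81.3 CPM), and Mgp, matrix Gla protein (270.3 against 965 CPM). Of 18 elastic fibre genes, 8 were higher in Aspn-positive members and none lower (Eln, Mfap5, Ltbp4, Loxl1, Mfap4, Fbln5, Ltbp1 and Lox), with Eln at 4659 against 1776 CPM (1.39). Of 6 adventitial genes that could be compared 5 were higher, and of 10 pericyte genes 5 were higher and 1 lower. Of 7 immune genes 3 were higher (Fcer1g, Laptm5 and Cd52) and none lower, and of 11 lipofibroblast and matrix fibroblast genes 4 were higher (Itga8, Npnt, Limch1 and Mfap4) and 1 lower (Fgfr4). Markers of these other types thus moved with Aspn, and their part in the difference was not tested. Contractile genes did not follow it closely: 3 of 30 were higher and none lower, with Acta2 at 4441 against 3344 CPM (0.41), and 89.9% against 85.7% of the cells had at least 3 smooth muscle gate genes. Of 15 S and G2/M phase genes 5 were lower and none higher.

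The markers of the rule ran against each other along this line. Pdgfra had a value in 31.2% of Aspn-positive members (23.5 to 39.6) and 84.9% of Aspn-negative members (80.1 to 89.0), and Hhip in 71.0% against 31.2%. These shares leave out the 35 cells with adventitial markers. All 35 had Aspn, 34 had Pdgfra and 32 had Hhip, so their exclusion lowers both shares on the Aspn-positive side. A cell without Aspn needs 3 of the other 5 markers to be a member, so the rule itself favours Pdgfra in such cells. Cells were chosen instead by at least 2 of P2ry14, Agt and Egfem1, again with fewer than 5 adventitial markers, which gave 129 Aspn-positive and 282 Aspn-negative cells. In these, Pdgfra was found in 28.7% (21.1 to 37.3) against 81.6% (76.5 to 85.9) and Hhip in 70.5% against 29.8%. Neither Pdgfra nor Hhip nor Aspn entered that choice. Of the 359 higher genes 300 were also higher there, and of the 350 lower genes 304 were also lower. In members within the interquartile range of detected genes the numbers were 296 and 250. Of the 410 members, 399 had P2ry14, 392 Agt and 349 Egfem1, so the first set holds largely the same cells. The second set is a part of the same members. Both were split by the same Aspn values, so these numbers are no independent check.

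**Figure D5:**
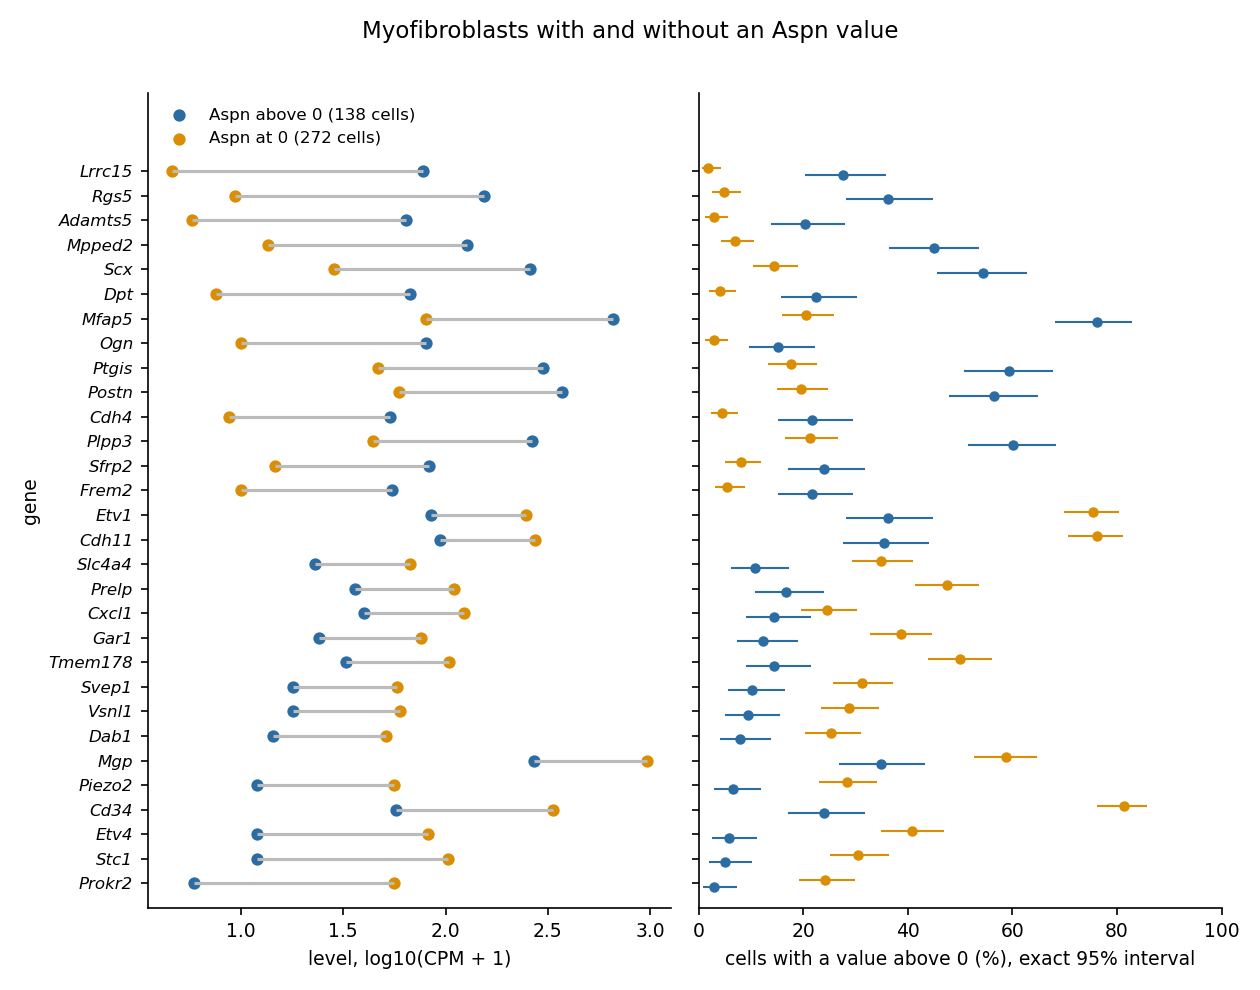
Left, level as log10(CPM + 1) of genes with the highest and lowest ratio in 138 Aspn-positive (blue) against 272 Aspn-negative (orange) members; right, share of cells with a value above 0 and its exact 95% interval. Mcpt8 and Actc1 are not drawn because few cells carried them (Actc1 in 3.62% of Aspn-positive members); Scx (54.3% against 14.3%) and Cd34 (23.9% against 81.2%) separate the groups in opposite directions.

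The members also ranged widely in contractile genes. The summed level of Acta2, Tagln, Myl9, Tpm2 and Tpm1 per cell ran from 407 to 37043 CPM, with a median of 10239 (interquartile range 5877 to 15241). The highest and lowest terciles, 137 cells each with medians of 2846 and 2666 detected genes, are ranges of this sum and not types, and 100 cells lay within 10% of a limit between them. Of 8413 genes, 202 were higher in the highest tercile (2.40%) and 219 lower (2.60%). Cnn1 was at 365 against 42.7 CPM, in 74.5% against 12.4% of cells, Actg2 at 1718 against 382 CPM and Bdnf at 77.3 against 19.5 CPM. Lower in the contractile-high cells were Stc1 (14.3 against 133 CPM), Mgp (332 against 1241 CPM) and Pcna, a DNA replication factor (22.6 against 74.4 CPM). Of 13 S and G2/M phase genes, 8 were lower and none higher, so the members with the lowest contractile sum carried more of the division genes. Of 9 pericyte genes, 4 were lower in the contractile-high cells (Cox4i2, Gucy1a1, Higd1b and Notch3) and 1 higher (Abcc9), with Higd1b at 2.38 against 65.8 CPM, and the pericyte-expressed receptor gene Pdgfrb was lower too, at 59.5 against 134 CPM. The part of pericyte markers in these differences was not tested. Tgfbi, at 3375 against 2254 CPM, and Eln, at 2690.0 against 2650.5 CPM, were under the 2-fold limit.

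In the bulk library of PDGFRA+ cells, the genes of the members were read again in a separate sample. Its cells were sorted on PDGFRA, whose gene is a marker of the rule. The sort itself thus favours genes of the members, and the bulk levels are no independent check. A bulk level mixes every cell type in the sort, and fewer cells of a type and less RNA per cell cannot be told apart in it. Of the 1004 genes that were higher in the members than in lipofibroblast-type cells, 973 were found. Their median percentile was 71.5 among bulk genes by CPM of the read counts. Of the 905 lower genes 857 were found, at a median percentile of 52.2. All genes compared had a median percentile of 66.7. Per gene length, in the deposited TPM, the same percentiles were 68.0, 50.5 and 66.5. Tgfbi was at 6057 CPM (6045 to 6069, exact Poisson interval), the 99.9th percentile by TPM, Ltbp2 at 3738, Acta2 at 3330.4, Agt at 1103, Pdlim3 at 727, Fgf18 at 73.3 and Nrtn at 62.9. Genes of the lipofibroblast set were found too, with Npnt at 224, Limch1 at 272 and Mfap4 at 4561 CPM. Eln was at 23627 CPM and the adventitial gene Dcn at 896, on a scale that is not comparable with the single-cell levels.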

How the data were processed

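For the single-cell sample the authors deposited whole-number UMI values per gene and cell, made with Cell Ranger 5.0 and Seurat 3.2.2 per the submitters' processing notes; the sources used here do not name its genome build. Cell totals spanned only 1.79-fold, and values of 1 made up 27.7% of the values in the 1000 cells with fewest genes against 74.3% in the 1000 with most, so these deposited values were treated as a depth-corrected score, not as raw counts. No Poisson interval was given for them and no thinning was run. For the bulk sample the authors deposited expected counts (15.9% of genes not whole), TPM and FPKM, made with Trim Galore, HISAT2, featureCounts and DESeq2 on mm10 per the submitters' processing notes; the FPKM were not used.

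Values were summed per class and scaled to CPM (Python 3.11.15, numpy 2.4.6, pandas 2.3.3, scipy 1.17.1, matplotlib 3.10.9). Intervals of shares are exact (Clopper-Pearson, 95%). The script was tested on simulated data. Doublets, predicted with a Scrublet-type score (scikit-learn 1.9.0) in 538 of 10660 cells, were kept. Positions are those of GENCODE M21 (mm10).

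The members and gene lists were chosen with earlier results of these data known. The naming rule took up to 4 genes per list with the largest ratio against lipofibroblast-type cells at 100 or more summed UMIs, the 20 highest and 10 lowest against all other and lipofibroblast-type cells, 10 and 10 against cycling and smooth muscle-type cells, the rule's 18 genes, and neurotrophic ligands and hedgehog genes. Other genes named, and the Aspn, contractile and adventitial groupings, were chosen after their values were seen.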

Additional observations from a re-analysis of the deposited data

How the results depend on the processing

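No paired analysis was possible because each group had 1 sample and no test was made. The counts of higher and lower genes moved by more than 1.5 times under the following settings, and the cause was not tested beyond the fewer or more genes compared. With 10 CPM added they were 1114 and 1262 against all other cells, 536 and 470 against lipofibroblast-type cells, 118 and 418 against cycling cells, 169 and 67 for Aspn and 69 and 62 for the contractile terciles, and 587 genes were higher than in smooth muscle-type cells. With a minimum of 1 summed UMI they were 1307 and 1394 against cycling and 2314 and 1473 against smooth muscle-type cells. With a minimum of 100 they were 551 and 514 against lipofibroblast-type, 145 and 204 against cycling and 567 and 232 against smooth muscle-type cells, 101 and 50 for Aspn and 36 and 16 for the terciles. Within the interquartile range of detected genes 1375 were higher than in all other and 907 than in cycling cells. At least 4 markers left 853 higher than in smooth muscle-type cells, and the terciles of all members had 375 lower genes. By TPM the bulk percentiles were 68.0 and 50.5.

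Direction turned in 7 of 1596 list medians and 6 of 2517 values of named genes. With at least 4 markers the adventitial median became -2.26 against all other cells (1.22 with at least 3) and -1.04 against smooth muscle-type cells (1.61), Ager -0.66, Ccl11 -3.41 and Postn -0.13 against lipofibroblast-type cells (1.08, 1.52 and 1.40), and Dcn -0.32 against cycling cells (4.81). Without the 35 cells with adventitial markers the adventitial medians were -1.95 and -0.73, and Ccl11 -3.41. With at least 2 markers the pericyte median against smooth muscle-type cells was 0.51 (-1.37). The transmitter receptor median against lipofibroblast-type cells, -1.28, became 0.20 with at most 5% mitochondrial share and 1000 genes, and 0.31 at like numbers of detected genes, where Sftpb was 0.31 (-1.62). With genes at 0 set to a floor of 3 counts, list medians moved by at most 0.47 in 25 comparisons. The limits are the single library, values that are not raw counts, and 445 cells, in which a gene at 0 may still have a value in up to 0.674% of cells, a limit that says nothing of how many cells express it.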
